A study of Rattus norvegicus with 9 samples.

Results

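The macrophage markers Trem2, Cd9, Gpnmb, Lgals3, Cd63, Cd68, Fabp5, Tyrobp, Itgam and Ccr2, which mark scar-associated, lipid-associated and recruited liver macrophages, were followed through 9 rat liver RNA libraries. They were taken by name and not by a threshold on these values. Of these 10 genes, 9 matched a row among the 40154 gene rows of the tables, and Ccr2 is not analysed here. HepLPC livers came from cirrhotic rats injected with rat HepLPCs, hepatocyte-derived liver progenitor-like cells, and PBS livers from cirrhotic rats given phosphate-buffered saline instead. Normal livers had neither cell transplants nor carbon tetrachloride (CCl4), a toxin that scars the liver when given repeatedly. All rats were wild-type Sprague-Dawley, 5 months old, and each group had 3 libraries. Normal rats had no injection either, so the injury and the injection cannot be told apart in comparisons with them, and the dose, number and route of the injections are not given in the sources used here.

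Resident liver macrophages, the Kupffer cells, are joined in injured liver by macrophages that arise from blood monocytes. In mouse and human fibrosis a subset of the recruited cells lies along the scar and is known for Trem2, Cd9, Gpnmb and Spp1. TREM2 is a surface receptor for lipids and lipoproteins that signals through the adaptor TYROBP (DAP12), while other markers of the set belong to the late endosome, to lipid binding or to monocyte adhesion. Several of these genes are also used outside macrophages: Cd9, Cd63, Lgals3 and Fabp5 by epithelia and other cells, and Tyrobp by natural killer cells and neutrophils.

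In cirrhotic PBS livers the receptor Trem2, the tetraspanin Cd9, the glycoprotein Gpnmb and the lectin Lgals3 stood well above normal livers, and all 4 were lower again in HepLPC livers. The tetraspanin Cd63 was also above normal in PBS livers, but its HepLPC and PBS values overlapped. The general macrophage gene Cd68, the adaptor Tyrobp, the lipid carrier Fabp5 and the integrin Itgam passed the test in neither comparison. The sequences before the start of the 4 changed genes that the RefSeq promoter table holds (build GRCr8) are shown first, because these genes were higher together in PBS livers. Each runs 5' to 3' on the gene's strand, from 250 bases before the annotated start to 50 bases after it. Capitals mark matches, on either strand, to GAGGAAG (a core of sites for the myeloid factor PU.1), TGACTCA (the AP-1 site), TCATGTG (the M-box of the MITF family) and CACGTG (the E-box used by MITF and TFEB relatives). No match overlapped another in these windows.
Trem2, chr9:20151730-20152029, minus strand: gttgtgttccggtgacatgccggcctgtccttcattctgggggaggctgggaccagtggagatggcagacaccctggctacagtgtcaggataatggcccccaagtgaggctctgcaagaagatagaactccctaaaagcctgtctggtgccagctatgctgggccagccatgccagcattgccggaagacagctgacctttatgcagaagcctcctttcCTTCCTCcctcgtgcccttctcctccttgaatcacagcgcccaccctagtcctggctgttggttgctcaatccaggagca
Cd9, chr4:159975309-159975608, minus strand: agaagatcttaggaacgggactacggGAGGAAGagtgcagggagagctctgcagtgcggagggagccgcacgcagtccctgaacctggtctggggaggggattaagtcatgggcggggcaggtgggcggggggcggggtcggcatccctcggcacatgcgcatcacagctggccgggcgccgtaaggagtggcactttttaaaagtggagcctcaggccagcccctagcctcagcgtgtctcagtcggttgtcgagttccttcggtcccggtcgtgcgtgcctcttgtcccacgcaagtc
Gpnmb, chr4:79340878-79341177, plus strand: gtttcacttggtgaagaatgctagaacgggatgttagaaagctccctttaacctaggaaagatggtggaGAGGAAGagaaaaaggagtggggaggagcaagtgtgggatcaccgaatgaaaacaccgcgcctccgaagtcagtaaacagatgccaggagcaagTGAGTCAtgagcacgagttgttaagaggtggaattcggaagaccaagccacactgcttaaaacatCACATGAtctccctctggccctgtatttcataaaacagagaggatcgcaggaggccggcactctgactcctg
Cd63, chr7:1921894-1922193, plus strand: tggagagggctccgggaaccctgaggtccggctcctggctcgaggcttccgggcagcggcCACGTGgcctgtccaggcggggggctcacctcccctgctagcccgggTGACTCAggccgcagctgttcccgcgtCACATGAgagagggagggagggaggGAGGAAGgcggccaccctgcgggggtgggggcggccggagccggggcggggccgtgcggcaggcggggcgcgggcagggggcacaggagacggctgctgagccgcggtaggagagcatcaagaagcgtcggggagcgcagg

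The PU.1 core stood once in each of these 4 windows. It also stood in the windows of Cd68 and Itgam, so all 6 members with a measured row and a promoter entry held it, against 12.4% of 33465 promoter windows of the same length. The M-box stood in Gpnmb and Cd63, at -22 and -116 relative to the start, against 3.56% of all windows. The AP-1 site stood in Gpnmb, Cd63 and, in 2 copies, Cd68, against 4.63% of all windows, and 0.248% of all windows held both an AP-1 site and an M-box. The E-box stood in Cd63 alone among these 6 members, against 6.42% of all windows. These are matches of letters only, chosen after the sequences had been seen, and the data hold no measurement of binding.

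**Figure D1:**
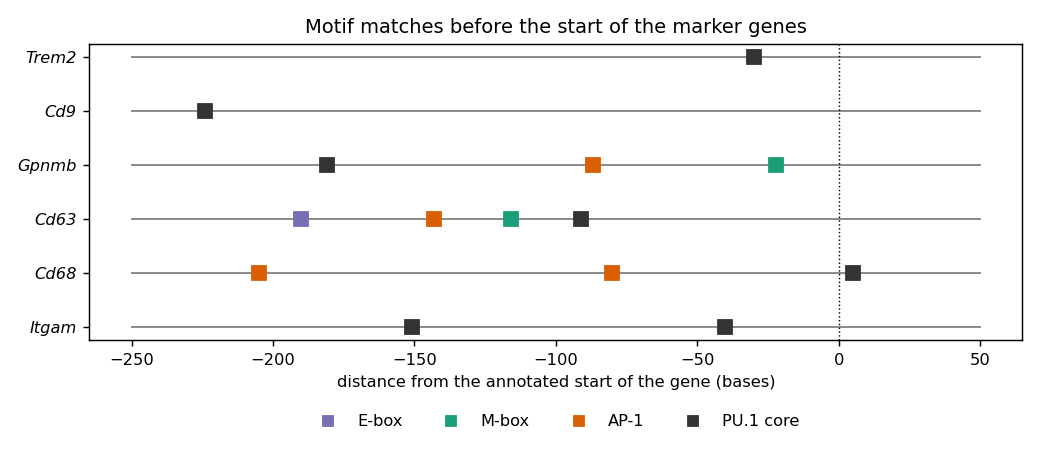
Positions of motif matches (coloured squares, at their first base) in 6 marker genes, with distance in bases from the annotated start on the horizontal axis. The PU.1 core appears in all 6 windows, and Gpnmb and Cd63 hold an AP-1 site and an M-box each.

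Levels are RPKM as deposited, in which a gene's reads are scaled to its length and to the reads of the library. The reads behind them were worked out from the steps between values. The library totals used in the scaling were 17408745 to 21797727 reads. These totals are close to the reads summed over gene rows, so the number of reads sequenced is not known. Differences are of mean log2(RPKM + 1), which understates changes of low genes, and are given with their standard error (SE) and the adjusted p of limma over 11124 tested genes. A gene was tested if at least 3 libraries reached 1 RPKM, and called at an adjusted p under 0.05. Whole-liver RNA cannot tell fewer cells of a type from less RNA per cell. The labels do not tell whether each numbered replicate was its own animal, and every p-value reflects only how these libraries varied.

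PBS replicate 1 and HepLPC replicate 2 departed from the rest: their departure from the mean of their group was lower for longer genes (Spearman correlation over 11124 genes of -0.528 for HepLPC replicate 2 and -0.564 for PBS replicate 1, against -0.157 to 0.423 in the other libraries). Deviations within a group sum to 0, so part of the spread among the others mirrors these. Transcripts of the members are short to moderate, from 610 bases for Tyrobp to 4020 for Itgam. Without both libraries 6 of the 8 tested members were called for PBS against normal, where all libraries gave 5, and 3 for HepLPC against PBS, where all libraries gave 4. The members behind the change are Tyrobp and Lgals3, described with their values. The filter was not applied again without these libraries, so Trem2 stayed among the tested members. Without both libraries, all genes called higher for PBS against normal also went from 1157 to 2895 of 11124. Those called lower for HepLPC against PBS went from 326 to 364.

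In PBS against normal livers 5 of the 8 tested members were called, all higher, where limma called 10.4% of all tested genes higher. Trem2 entered the test only through its PBS libraries. Of the 7 members above 1 RPKM in all 9 libraries, 4 rose. In HepLPC against PBS livers 4 of the 8 were called, all lower, against 2.93% of all tested genes called lower; of the same 7 members, 3 fell. In HepLPC against normal livers limma called 0 of the 8, 3 had an unadjusted p under 0.05, and voom called 0. Of all 11124 tested genes limma called 0.0809%, and 1036 had an unadjusted p under 0.05. The comparisons share the PBS or the normal libraries and so are not independent of each other. Counting ranges without a test, 8 of the 9 measured members were higher in every PBS library than in every normal one (32.7% of all tested genes were), and 5 of the 9 were lower in every HepLPC library than in every PBS one (15.6%). Both counts include Trem2, tested only through its PBS libraries, and Itgam, which did not meet the filter behind these shares. Median-of-ratios scaling moved the median difference of all genes for PBS against normal from 0.184 to -0.044, and the genes called higher and lower from 1157 and 105 to 530 and 276. Under it Trem2 (1.38), Cd9 (1.54), Gpnmb (1.74) and Lgals3 (2.23) were still called higher, all far above that median.

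**Figure D2:**
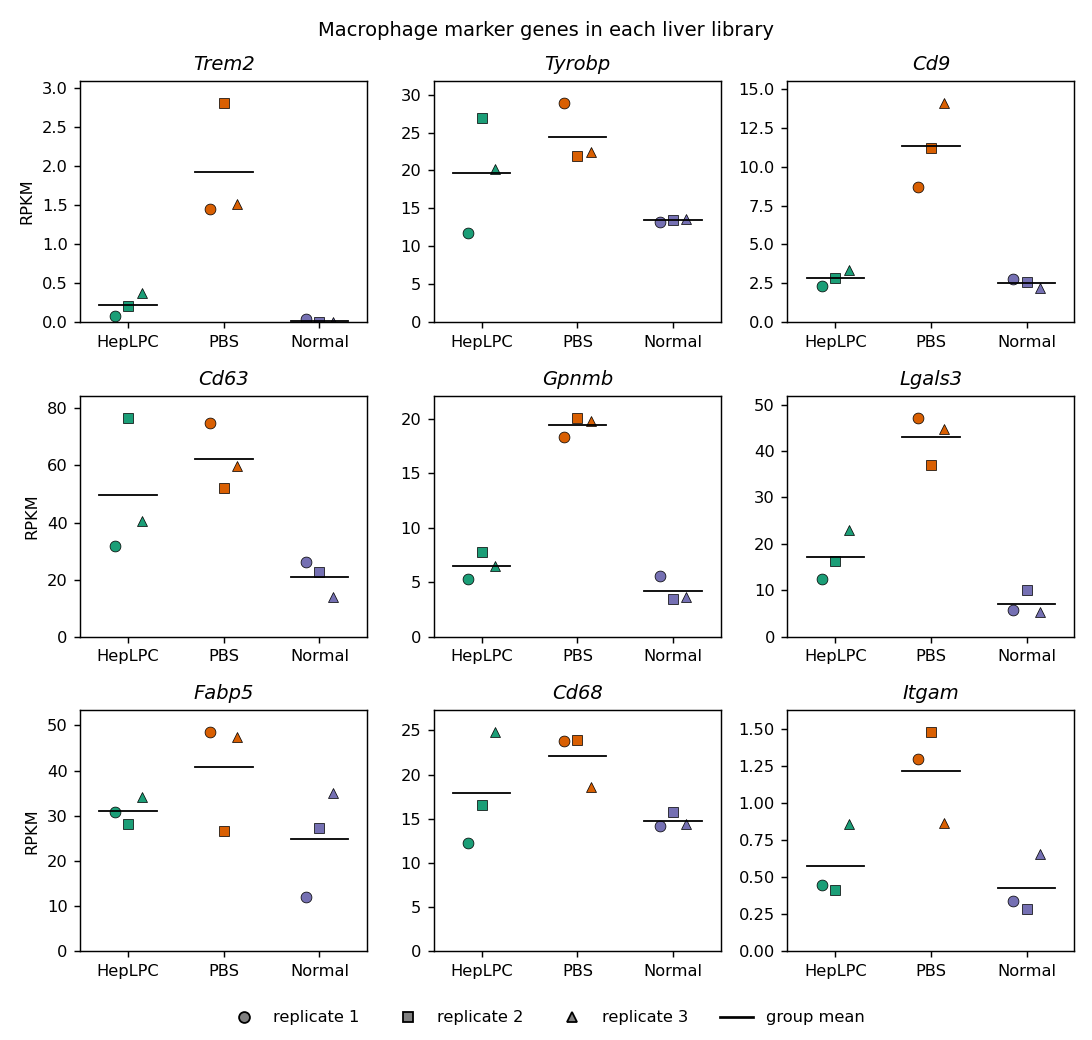
RPKM (vertical axes, linear from 0) of the 9 measured genes in each library, with a symbol per replicate and a bar at the group mean. PBS libraries lie above all others for Trem2, Cd9, Gpnmb, Lgals3 and, narrowly, Itgam (lowest PBS value 0.869 RPKM, highest HepLPC value 0.857 RPKM). The HepLPC and PBS ranges overlap for Cd63, Tyrobp, Fabp5 and Cd68.

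Among the receptors, Trem2 was close to absent in normal livers. It had 0.0835, 0.208 and 0.371 RPKM in HepLPC livers, 1.45, 2.81 and 1.51 RPKM in PBS livers, and 0.0404, 0 and 0 RPKM in normal livers. In reads this was 15 over the HepLPC group, 141 over the PBS group and 1 over the normal group, so every PBS library stood above every HepLPC library, and these above every normal one. In the normal libraries without a read, a count of 0 allows up to 0.111 and 0.113 RPKM (3 counts). HepLPC replicate 1, with 2 reads, lies under these limits, so its place above the normal libraries is not settled by these counts. Relative to the library totals used in the scaling, PBS livers had 153 times the normal level, with a 95% counting interval of 27.0 to 6090. HepLPC livers had 0.11 times the PBS level (0.0602 to 0.188). These intervals cover counting error only. On the log2 scale the difference was 1.50 for PBS against normal (SE 0.18, limma adjusted p = 0.00118) and -1.24 for HepLPC against PBS (SE 0.18, limma adjusted p = 0.00942). With so few reads the size depends on the scale: with a pseudocount of 0.1 the same differences were 4.11 and -2.70, and on the recovered reads (voom) 6.08 and -3.17. Fitted on the HepLPC and PBS libraries alone, the fall missed the threshold (limma adjusted p = 0.0566).

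Tyrobp, the adaptor that carries the TREM2 signal into the cell, had 11.7, 26.9 and 20.2 RPKM in HepLPC livers, 28.9, 21.9 and 22.4 RPKM in PBS livers, and 13.2, 13.4 and 13.6 RPKM in normal livers. Each PBS library exceeded each normal one, while the HepLPC libraries spread over both ranges. The difference of 0.81 for PBS against normal did not pass (SE 0.25, limma adjusted p = 0.0688), but it passed in 6 of 19 alternatives, among them without PBS replicate 1 and HepLPC replicate 2 (0.69, limma adjusted p = 0.038). For HepLPC against PBS it was -0.36 (95% interval -0.92 to 0.20, limma adjusted p = 0.516), and it was -0.05 without HepLPC replicate 1 and -0.62 without HepLPC replicate 2. Itgam, the CD11b chain of the integrin of monocytes and neutrophils, had 0.451, 0.411 and 0.857 RPKM in HepLPC livers, 1.30, 1.48 and 0.869 RPKM in PBS livers, and 0.337, 0.285 and 0.660 RPKM in normal livers. Its lowest PBS value barely exceeded its highest HepLPC value, and Itgam fell short of the filter. With no filter its difference was 0.63 for PBS against normal (SE 0.17, limma adjusted p = 0.062) and -0.50 for HepLPC against PBS (SE 0.17, limma adjusted p = 0.214).

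Cd9 and Cd63 are tetraspanins, proteins that organise other proteins in membranes. Cd9, found at the cell surface and on extracellular vesicles, had 2.33, 2.81 and 3.36 RPKM in HepLPC livers, 8.67, 11.2 and 14.1 RPKM in PBS livers, and 2.77, 2.57 and 2.21 RPKM in normal livers. PBS livers stood apart from both other groups, whose ranges overlapped. Mean Cd9 in PBS livers was 4.50 times that in normal livers (1.79, SE 0.18, limma adjusted p = 0.000551), and in HepLPC livers 0.25 times that in PBS livers (-1.67, SE 0.18, limma adjusted p = 0.00288). HepLPC and normal livers differed by 0.12 (95% interval -0.28 to 0.52). Cd63, found on late endosomes and exosomes, had 31.9, 76.8 and 40.6 RPKM in HepLPC livers, 74.9, 52.0 and 59.7 RPKM in PBS livers, and 26.3, 22.8 and 14.0 RPKM in normal livers. HepLPC replicate 2 was the highest of all 9 libraries for Cd63, and the other HepLPC libraries lay between the normal and PBS ranges. Cd63 rose 2.95-fold in PBS against normal livers (1.55, SE 0.33, limma adjusted p = 0.0161). That call was lost with median-of-ratios scaling (limma adjusted p = 0.0732), without normal replicate 3 (limma adjusted p = 0.0612) and without PBS replicate 3 (limma adjusted p = 0.057). For HepLPC against PBS it differed by -0.40 (95% interval -1.13 to 0.33, limma adjusted p = 0.584), by -0.61 without PBS replicate 1 and HepLPC replicate 2 (limma adjusted p = 0.226), by -0.14 without HepLPC replicate 1 and by -0.75 without HepLPC replicate 2.

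Gpnmb, a lysosomal and surface glycoprotein induced in lipid-loaded macrophages, had 5.29, 7.79 and 6.47 RPKM in HepLPC livers, 18.3, 20.1 and 19.8 RPKM in PBS livers, and 5.54, 3.46 and 3.61 RPKM in normal livers. Its PBS libraries were the tightest of any member in that group, with a coefficient of variation of 4.82%. Gpnmb rose 4.62-fold in PBS against normal livers (1.99, SE 0.18, limma adjusted p = 0.000293) and in HepLPC livers fell to 0.336 times the PBS mean (-1.45, SE 0.18, limma adjusted p = 0.00472). Lgals3, galectin-3, a sugar-binding lectin secreted by macrophages and some epithelia, had 12.4, 16.3 and 23.0 RPKM in HepLPC livers, 47.2, 37.0 and 44.8 RPKM in PBS livers, and 5.66, 10.1 and 5.36 RPKM in normal livers. The 3 groups did not overlap, with HepLPC livers in the middle. Lgals3 rose 6.12-fold in PBS against normal livers (2.50, SE 0.26, limma adjusted p = 0.000582). In HepLPC against PBS livers it fell by 1.30 (SE 0.26, limma adjusted p = 0.0301). That call was lost in 11 of 19 alternatives, among them leaving out PBS replicate 1, 2 or 3 or HepLPC replicate 1 or 2 (limma adjusted p = 0.0516 to 0.119), the block by replicate number (limma adjusted p = 0.0694), median-of-ratios scaling (limma adjusted p = 0.0905) and leaving out both PBS replicate 1 and HepLPC replicate 2 (-1.22, limma adjusted p = 0.0964). The difference itself stayed between -1.52 and -1.08 in all 19.

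Cd68, a lysosomal glycoprotein of macrophages in general, had 12.3, 16.6 and 24.8 RPKM in HepLPC livers, 23.8, 23.9 and 18.6 RPKM in PBS livers, and 14.2, 15.8 and 14.4 RPKM in normal livers. PBS values lay above the normal ones, by 1.49-fold in the mean, without passing (0.54, SE 0.22, limma adjusted p = 0.149). The difference passed in 1 of 19 alternatives, the fit of only these groups (limma adjusted p = 0.0347), and was 0.27 with median-of-ratios scaling. HepLPC values covered both ranges (-0.33 against PBS, 95% interval -0.83 to 0.16, limma adjusted p = 0.502), and the difference was -0.10 without HepLPC replicate 1 and -0.58 without HepLPC replicate 3. Fabp5, an intracellular carrier of fatty acids, had 30.8, 28.1 and 34.1 RPKM in HepLPC livers, 48.5, 26.6 and 47.4 RPKM in PBS livers, and 12.0, 27.3 and 35.0 RPKM in normal livers. All 3 of its groups overlapped (0.77 for PBS against normal, limma adjusted p = 0.199; -0.34 for HepLPC against PBS, limma adjusted p = 0.665). Single libraries moved these values: without normal replicate 1 the difference for PBS against normal was 0.34, and without PBS replicate 1, 2 or 3 that for HepLPC against PBS was -0.19, -0.62 or -0.21.

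**Figure D3:**
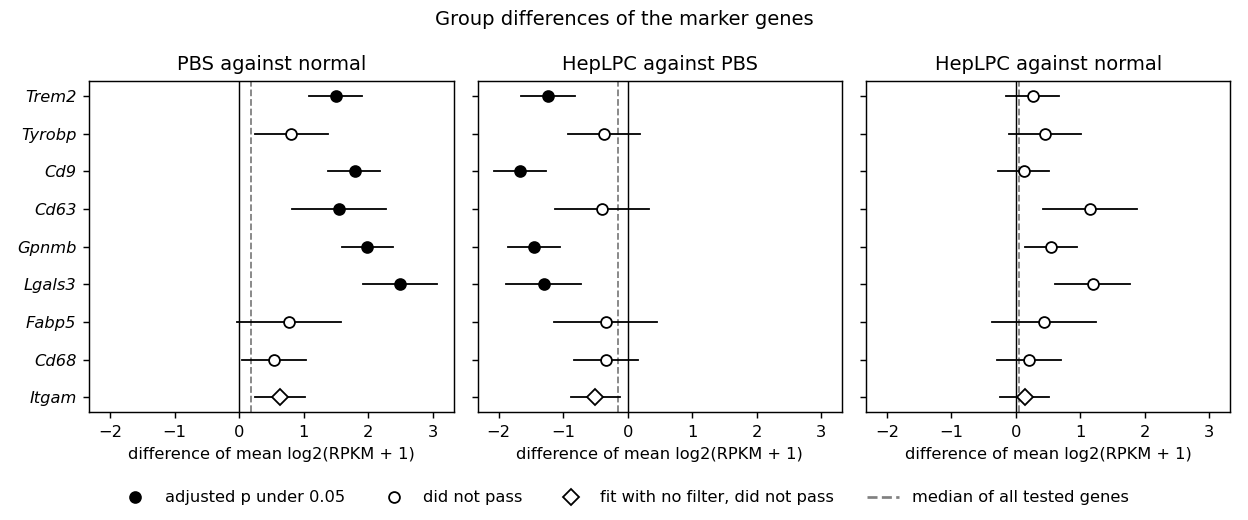
Differences of mean log2(RPKM + 1) between groups (horizontal axes) with 95% intervals for each gene. Filled points passed (adjusted p under 0.05), and diamonds are Itgam in the fit with no filter. Trem2, Cd9, Gpnmb and Lgals3 are filled on opposite sides of 0 in the PBS against normal and HepLPC against PBS panels, and no gene is filled for HepLPC against normal.

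HepLPC livers were not called different from normal livers for any tested member, although the mean values of Lgals3 and Cd63 were the farthest above normal among members other than Trem2. Lgals3 was 2.45 times the normal mean (1.19, 95% interval 0.61 to 1.77, limma adjusted p = 0.195) and Cd63 2.36 times (1.15, 95% interval 0.42 to 1.88, limma adjusted p = 0.295), and in both the ranges did not overlap. Values above normal without overlap were found for 12.3% of all tested genes in that comparison. In simulated data the fit called 42.4% of genes changed 2-fold there, so a missed call does not show equal levels. Within the HepLPC group, replicate 1 was the lowest library for 7 of the 9 members, replicate 3 the highest for 6 and replicate 2 the highest for Gpnmb, Cd63 and Tyrobp.

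Per unit length, the order of levels also differed between groups. In HepLPC livers it ran Cd63 (49.8 RPKM), Fabp5 (31.0), Tyrobp (19.6), Cd68 (17.9), Lgals3 (17.2), Gpnmb (6.52), Cd9 (2.83), Itgam (0.573) and Trem2 (0.221). In PBS livers it ran Cd63 (62.2 RPKM), Lgals3 (43.0), Fabp5 (40.8), Tyrobp (24.4), Cd68 (22.1), Gpnmb (19.4), Cd9 (11.3), Trem2 (1.92) and Itgam (1.22). In normal livers it ran Fabp5 (24.8 RPKM), Cd63 (21.1), Cd68 (14.8), Tyrobp (13.4), Lgals3 (7.03), Gpnmb (4.20), Cd9 (2.52), Itgam (0.428) and Trem2 (0.0135). Neighbours whose replicate ranges overlapped were Cd63 with Fabp5, Tyrobp with Cd68 and Cd68 with Lgals3 in HepLPC livers. In PBS livers they were Lgals3 with Fabp5, Fabp5 with Tyrobp, Tyrobp with Cd68, Cd68 with Gpnmb, and Trem2 with Itgam. In normal livers they were Fabp5 with Cd63, Cd63 with Cd68, and Lgals3 with Gpnmb.

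Each library's own Cd68 gave a second scale, chosen after the values had been seen. Ratios were taken for Cd9, Gpnmb, Lgals3, Cd63, Tyrobp and Itgam, but not for Trem2 and Fabp5. On RPKM all groups of Fabp5 overlapped. Cd9 was at 0.189, 0.169 and 0.135 of Cd68 in HepLPC livers, 0.364, 0.466 and 0.762 in PBS livers, and 0.195, 0.163 and 0.153 in normal livers. Gpnmb was at 0.431, 0.469 and 0.26 of Cd68 in HepLPC livers, 0.771, 0.84 and 1.07 in PBS livers, and 0.391, 0.219 and 0.25 in normal livers. Lgals3 was at 1.01, 0.981 and 0.924 of Cd68 in HepLPC livers, 1.98, 1.55 and 2.41 in PBS livers, and 0.4, 0.638 and 0.371 in normal livers. Itgam averaged 0.032 of Cd68 in HepLPC livers, 0.0545 in PBS livers and 0.0292 in normal livers. For these 4 genes the PBS ratios overlapped with neither other group, with p = 0.1 in the exact 2-sided permutation test for each, the smallest that 3 against 3 allows (0.133 adjusted over the 12 ratio tests). The share of all genes that separate on this scale was not computed. On RPKM, 32.7% of all tested genes were higher in every PBS library than in every normal one. For HepLPC against PBS, 15.6% were lower without overlap on RPKM. The Cd63 ratio averaged 2.95 in HepLPC livers, 2.85 in PBS livers and 1.42 in normal livers, with overlapping HepLPC and PBS ranges (exact permutation p = 1) and no overlap between PBS and normal livers (exact permutation p = 0.1). The Tyrobp ratio averaged 1.13, 1.11 and 0.906 in HepLPC, PBS and normal livers, and all its ranges overlapped.

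**Figure D4:**
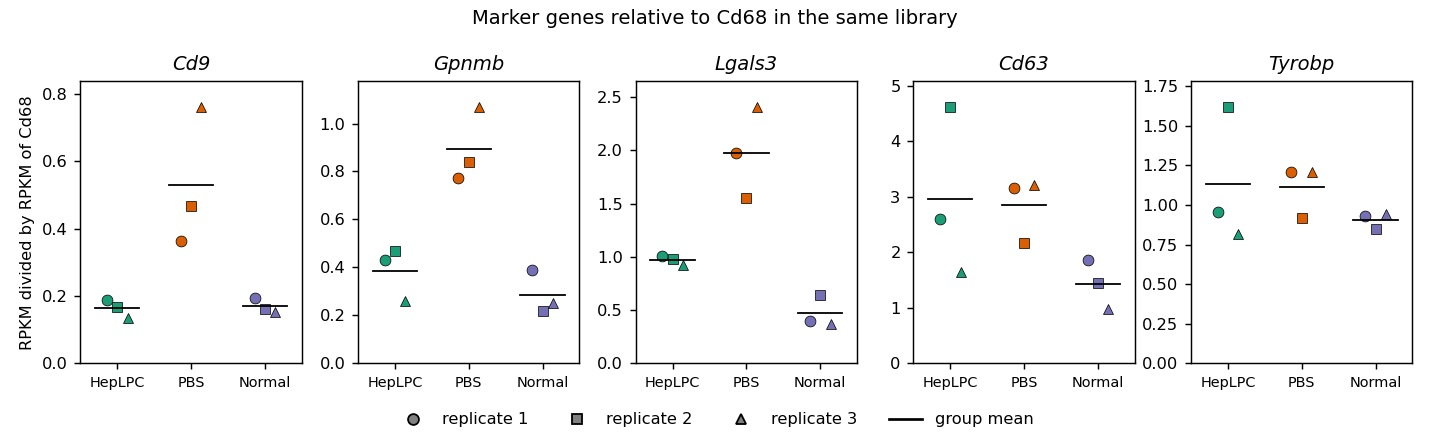
RPKM of 5 marker genes divided by the RPKM of Cd68 in the same library (vertical axes, linear from 0), with a symbol per replicate and a bar at the group mean. PBS ratios of Cd9, Gpnmb and Lgals3 lie above all other libraries, and those of Tyrobp overlap with both other groups.

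Related genes gave a mixed picture. Of 22 tested genes of the wider scar- and lipid-associated signature, 12 rose in PBS against normal livers (10.4% of all tested genes did), with a median of 0.76 beside 0.184 for all genes. In HepLPC against PBS livers 4 of these 22 fell (median -0.39, beside -0.145, with 2.93% of all tested genes lower). Mmp12 and Clec7a met the filter only with the help of the PBS libraries. Among the other 20 genes 10 rose and 3 fell, and voom called 11 and 3 of all 22. Spp1, named above for the scar-associated subset, differed by 4.21 for PBS against normal (SE 0.58, limma adjusted p = 0.00208). For HepLPC against PBS it differed by -2.93 (SE 0.58, limma adjusted p = 0.0306). Of 8 tested bile duct markers 7 rose and 7 fell in the same comparisons, and which cells carried the transcripts of this list was not tested. Anxa2, annexin A2, was at 14.1 ± 5.52 RPKM in HepLPC livers, 50.8 ± 5.60 in PBS livers and 6.76 ± 0.817 in normal livers (SD, n = 3), Mmp12, the macrophage elastase, at 0.717 ± 0.197, 3.63 ± 1.38 and 0.216 ± 0.0734, and Lyz2, lysozyme, at 20.1 ± 1.99, 109 ± 55.3 and 17.6 ± 2.13. All 3 passed in both comparisons (limma adjusted p = 0.00516, 0.00795 and 0.00492 for HepLPC against PBS, and 0.000281, 0.000592 and 0.000967 for PBS against normal). Among 9 other tested tetraspanins, 2 rose in PBS livers and 2 fell in HepLPC livers, Tspan3 and Tspan8 in each case, of which voom called 2 and 1. Tspan3 was at 5.67 ± 1.06 RPKM in HepLPC livers, 14.6 ± 2.0 in PBS livers and 3.96 ± 0.475 in normal livers.

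The signalling genes behind TREM2 and TYROBP gave no calls. Of 8 tested members, limma and voom called 0 in PBS against normal livers and 0 in HepLPC against PBS livers, with 3 at an unadjusted p under 0.05 in each. Across all 11124 tested genes limma called 1262 and 341 in these comparisons, and 3042 and 1792 had an unadjusted p under 0.05. For lists this short, 0 calls is not far from that share. Vav1, an exchange factor downstream of SYK, was at 1.32 ± 0.315 RPKM in HepLPC livers, 2.05 ± 0.272 in PBS livers and 1.20 ± 0.141 in normal livers (SD, n = 3; limma adjusted p = 0.183 for HepLPC against PBS and 0.06 for PBS against normal). Of 15 late endosome and lysosome genes, limma and voom called 0 in both comparisons (2 and 1 at an unadjusted p under 0.05). Of 10 monocyte recruitment ligands and adhesion genes, limma and voom also called 0 (4 and 1 at an unadjusted p under 0.05). Ccl2, the chemokine ligand of CCR2, was at 0.918 ± 0.164 RPKM in HepLPC livers, 2.66 ± 2.39 in PBS livers and 0.508 ± 0.152 in normal livers.

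Markers of other cells moved beside these genes, and their part in the results was not tested. Sums are over every listed gene with a row, tested or not, and calls are limma's. For comparison, 10.4% of all tested genes rose in PBS against normal livers and 2.93% fell in HepLPC against PBS livers. An unadjusted p under 0.05 was reached by 3042 and 1792 of the 11124 tested genes in these comparisons. Of 8 tested bile duct markers 7 rose in PBS against normal livers and 7 fell in HepLPC against PBS livers; the summed level of the whole list of 10 was 13.5 to 23.0 RPKM in HepLPC livers, 45.4 to 126 RPKM in PBS livers and 12.8 to 16.2 RPKM in normal livers. Of these 8, Sox9, Prom1, Cftr and Cldn4 met the filter only with the help of the PBS libraries, 3 of the other 4 were called in each comparison, and voom called 7 and 5 of the 8. Of 9 stellate cell and myofibroblast markers 7 rose and 3 fell in the same comparisons, with sums of 49.0 to 57.7, 81.1 to 131 and 24.3 to 27.5 RPKM in HepLPC, PBS and normal livers. Here Col1a1 and Loxl1 met the filter only with the help of the PBS libraries, 5 of the other 7 rose and 1 fell, and voom called 7 and 2 of the 9. Of 7 markers shared by all leukocytes 4 rose and 1 fell, Lcp1 (L-plastin) in both (voom called 3 and 1), with sums of 46.7 to 75.8, 75.3 to 88.3 and 46.2 to 52.5 RPKM in the same order. Of 12 Kupffer cell markers limma and voom called 0 in both comparisons (5 and 2 at an unadjusted p under 0.05), with sums of 289 to 449, 378 to 568 and 249 to 345 RPKM. Of 7 monocyte markers 1 rose and 1 fell, Cd44, a receptor that other cells also carry, which met the filter only with the help of the PBS libraries, so that 0 of the other 6 were called by limma or voom (sums of 159 to 246, 186 to 285 and 193 to 243 RPKM). The median differences of these 7 were 0.42 and -0.55, beside 0.184 and -0.145 for all tested genes. An unadjusted p under 0.05 was reached by 3 and 4 of them. Sums follow the highest genes of a list, and Csf1r (14.2 RPKM in PBS livers) and Plac8 (7.94 RPKM) are small parts of this one. Of 2 tested dendritic cell markers 1 rose and 1 fell, Clec10a, a lectin also found on macrophages (sums of 3.22 to 4.26, 8.01 to 8.80 and 3.05 to 3.51 RPKM), and of 2 neutrophil markers 1 rose, S100a9, which voom did not call (sums of 3.63 to 4.54, 6.78 to 20.4 and 2.16 to 5.12 RPKM). Natural killer markers, which share Tyrobp, gave no call by limma or voom (0 of 3, and 0 at an unadjusted p under 0.05, with sums of 5.73 to 9.14, 5.77 to 8.18 and 3.87 to 7.25 RPKM). Hepatocyte markers and the 2 tested genes of the T and B cell list, Cd4 and Cd8a, gave 0 calls in both comparisons by both tools (2 and 1 of 8, and 1 and 1 of 2, at an unadjusted p under 0.05). Cd4 differed by 0.55 and -0.61 and Cd8a by -0.26 and 0.37, so these 2 do not describe lymphocytes as a whole. Of 7 endothelial markers 1 rose, Vwf. No listed marker was at 0 in all 9 libraries.

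**Figure D5:**
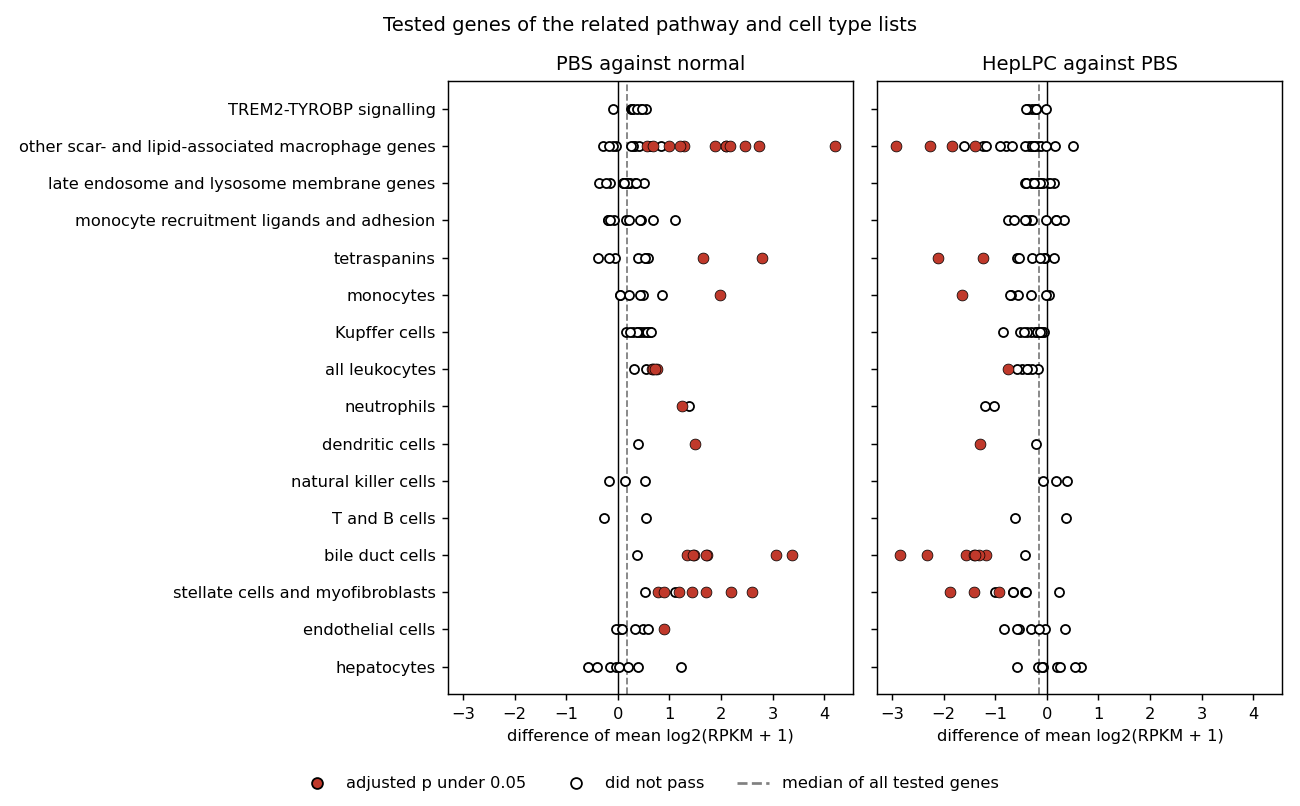
Difference of mean log2(RPKM + 1) (horizontal axes) for each tested gene of 16 lists, with red points for genes that passed (adjusted p under 0.05) and a dashed line at the median of all tested genes. Red points gather in the signature list, the bile duct list and the stellate cell list, and for PBS against normal also in the list of all leukocytes (4 of 7). The TREM2-TYROBP and Kupffer cell lists have none.

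Outside the set, the 6 tested genes whose profile over the 9 libraries was most like the members' mean were Grn, Tmsb10, Anxa2, Ifngr1, Itm2c and S100a10, with Pearson r of 0.979 to 0.987. Among the members themselves, r with that mean ran from 0.611 for Fabp5 to 0.975 for Lgals3. These values are descriptions: the 9 libraries fall into 3 groups, and the members enter their own mean. Grn, progranulin, a lysosomal glycoprotein, was at 37.1 ± 5.45 RPKM in HepLPC livers, 46.6 ± 1.90 in PBS livers and 29.4 ± 1.12 in normal livers (SD, n = 3).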

How the data were processed

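Whole liver RNA was sequenced from TruSeq RNA libraries, per the labels' protocols. The values deposited by the authors are RPKM, per the file headers, 1 file per library. HISAT2, StringTie and the build hg19 are listed in the submitters' processing notes, while rows carry rat symbols. The annotation, strand setting and handling of shared reads are not given in the sources used here, so no coordinates are taken from the files. Of 40154 rows, 21578 matched a symbol of the GRCr8 gene table.

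Whole reads (tolerance 0.01) were recovered for 20959 of 20959 rows above 0 in 3 or more libraries. RPKM values as log2(RPKM + 1) were fitted with limma 3.58.1 (R 4.3.3; mean-variance trend, 2-sided, a term per group, 9 libraries, 6 residual degrees of freedom), with Benjamini-Hochberg adjustment over 11124 genes. Both steps were tested on simulated data. Counts of each replicate pair differed by more than sampling noise.

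The members, the 16 related lists and the tests were chosen with earlier results of these data known. Besides the members, text names come from the 3 genes with the smallest adjusted p per list in PBS against normal and in HepLPC against PBS (not all are named) and from the 6 most similar profiles. Spp1 is given because the background names it. Motifs and the scaling to Cd68 were chosen after the data had been seen. Alternatives were another pseudocount, no filter, other scalings, quantile normalization, a replicate block, 2-group fits, length correction, voom and left-out libraries.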

Additional observations from a re-analysis of the deposited data

How the results depend on the processing

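Each member was refitted under 19 alternatives per comparison. The calls of Cd9 and Gpnmb in PBS against normal and HepLPC against PBS, and of Lgals3 in PBS against normal, held in all 19. That of Trem2 in PBS against normal also held, but Trem2 was tested only through its PBS libraries. The filter was not applied again when libraries were left out, so Trem2 stayed in those fits and this adds no support for it. Leaving out each library in turn gave 4 to 6 called members for PBS against normal, 3 to 4 for HepLPC against PBS and 0 for HepLPC against normal. Fitting only the groups compared gave 2 called members for HepLPC against PBS, where the fit of all 9 libraries gave 4, and 7 for PBS against normal, where it gave 5; the cause was not tested. Values changed sign in HepLPC against normal for Cd9 with the gene length trend removed (-0.01) and for Cd68 without HepLPC replicate 3 (-0.04, in a range of -0.04 to 0.44 over left-out libraries); neither was called, and the cause of the sign change was not tested. Median-of-ratios scaling moved the median of all genes from -0.145 to 0.043 for HepLPC against PBS. All genes called numbered 1262 for PBS against normal, against 806 with that scaling, 714 with quantile normalization (492 higher, 222 lower), 3168 without PBS replicate 1 and HepLPC replicate 2, and 562 to 1809 over left-out libraries. For HepLPC against PBS they numbered 341, against 181, 213 (32 higher, 181 lower), 390 and 90 to 398 under the same settings, and 86 with only these groups fitted. For HepLPC against normal they numbered 9, and 0 to 16 over all settings. No clear pairing by replicate number was seen, but with 3 libraries a group and deviations that sum to 0 this check cannot exclude one. Deviations of same-numbered libraries correlated between -0.412 and 0.31. In PBS against normal, HepLPC against PBS and HepLPC against normal, 0 of 6, 2 of 6 and 3 of 6 libraries correlated best with their own number. With the replicate block the called members numbered 5, 3 and 0 in these comparisons, and all called genes 787, 198 and 1. Trem2 rests on 1 read in normal livers and Itgam lies under the filter, so depth limits both.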
